A study of Sus scrofa with 12 samples.

Results

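The SR and hnRNP splicing factors of porcine granulosa cells are described here by the RNA level of their genes and by the m6A peaks listed on them. Members were the rows of the deposited expression table whose gene name was SRSF followed by a number, or began with HNRNP, which gave 26 of 18060 genes. Of the 26, 11 were SRSF genes and 15 were HNRNP genes. All 26 passed the filter on low values, at least 1 FPKM in at least 3 input libraries, as did 10196 genes in all. HNRNPC, HNRNPF, HNRNPA0, HNRNPA3 and HNRNPAB, names that RefSeq also holds for the pig, were not analysed here.

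Primary granulosa cells, which nourish the oocyte and make steroid hormones, were taken from antral follicles of mature Duroc × Yorkshire × Landrace sows. They were held for 12 h at 21% O2 (normoxia) or at 1% O2 (hypoxia), both at 5% CO2, in 3 biological replicates per condition. From each replicate, fragmented poly(A) RNA was sequenced as input and again after pull-down with an m6A antibody. All samples carry 1 batch name, and no label says whether the replicates came from different animals, so p-values measure the spread between these cultures. RNA levels are given in FPKM, which adjusts fragment numbers for the length of a transcript and the size of a library, for the 6 input libraries. Library totals lay between 294929 and 326804 FPKM. The fragment depth behind them is unknown. Of 10 granulosa markers, 7 averaged at least 1 FPKM, among them FSHR, FOXL2 and CYP11A1, whereas STAR, AMH and CYP19A1 averaged less. The granulosa markers summed to between 317 and 518 FPKM in normoxia and between 134 and 288 in hypoxia, mostly CYP11A1 (log2 fold change -1.44, adjusted p = 0.0612), and FSHR fell by 0.72 on the log2 scale (adjusted p = 0.0101). Theca markers summed to at most 0.622 FPKM in a library. Fibroblast and smooth muscle markers summed to between 6983 and 8889 FPKM in normoxia and between 3152 and 4345 in hypoxia, nearly all of it ACTA2. Of these 6 markers, ACTA2 and DES were lower at an adjusted p under 0.05, whereas PDGFRA was higher (log2 fold change 0.84, adjusted p = 0.0121). DCN, LUM and MYH11 did not pass. Of the 4 endothelial markers found, only PECAM1 averaged at least 1 FPKM, and it fell by 0.99 on the log2 scale (adjusted p = 0.00414). VWF, KDR and TEK averaged at most 0.119 FPKM in either condition and were not tested. The part of these marker differences in the results was not tested.

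SR proteins carry RNA recognition motifs and a tail rich in arginine and serine, bind enhancer sequences in exons and bring the spliceosome to nearby splice sites. The hnRNP proteins coat new transcripts, often block splice sites, and also act in export, stability and translation. Many genes of both families limit their own product by including exons that send their mRNA to nonsense-mediated decay. Both families meet m6A in the nucleus, where the reader YTHDC1 recruits SR proteins and where HNRNPA2B1 has been described as a reader of the mark.

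In hypoxia, 4 of the 26 genes fell and 1 rose at an adjusted p under 0.05 (limma on log2(FPKM + 1), Benjamini-Hochberg over all tested genes). The genes that fell were SRSF2, SRSF7, SRSF12 and HNRNPL, and the gene that rose was HNRNPUL2. SRSF12 passed the filter on low values only through the normoxia libraries, where it is higher, so its call is no independent support. Among all tested genes 26.5% passed, 21.1% lower and 5.4% higher, so the share of members was near the background. The estimate was below 0 for 25 of the 26 genes, compared with 72.2% of tested genes. Without hypoxia replicate 3 it was below 0 for 19 of the 26, compared with 6434 of 10196 tested genes. An unadjusted p under 0.05 was found for 10 of 26, near the 38.2% of tested genes. Their median log2 fold change was -0.56, beside -0.26 for all tested genes. The median was -0.57 for SRSF genes and -0.55 for HNRNP genes. The libraries of the conditions did not overlap for 9 members, 8 lower and 1 higher in hypoxia. Over all tested genes 44.1% did not overlap, 34.9% lower and 9.25% higher. In bulk RNA, fewer cells of a type and less RNA per cell cannot be told apart.

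**Figure D1:**
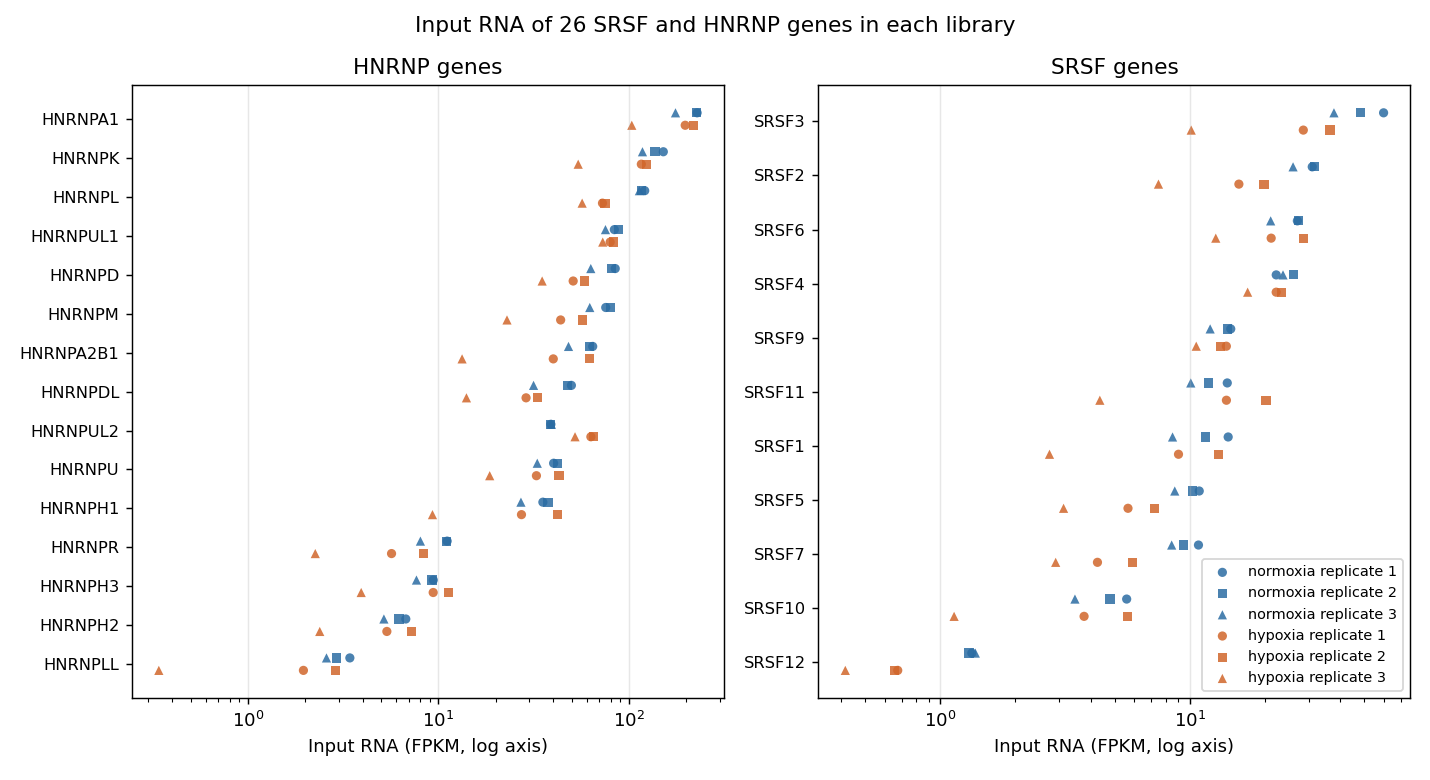
Input RNA level of each gene in each library, in FPKM on a log axis, with HNRNP genes on the left and SRSF genes on the right (blue, normoxia; orange, hypoxia; circles, squares and triangles, replicates 1, 2 and 3). The orange triangle, hypoxia replicate 3, is the leftmost hypoxia point in all 26 rows, and HNRNPUL2 is the only row in which all hypoxia points lie to the right of all normoxia points.

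SRSF3, the smallest SR protein and an adaptor for mRNA export, was the most abundant SRSF mRNA. It measured 59.7, 48.2 and 37.8 FPKM in normoxia replicates 1 to 3 and 28.5, 36.4 and 10.1 FPKM in hypoxia. Every hypoxia library lay below every normoxia library, but the hypoxia values spread more than 3-fold. The mean was 48.6 ± 10.97 FPKM (SD, n = 3) in normoxia and 25.0 ± 13.5 in hypoxia, and the log2 fold change of -1.08 (SE 0.44) did not pass (adjusted p = 0.121). Without hypoxia replicate 3 the change was smaller, -0.55, and passed (adjusted p = 0.0379).

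SRSF2, an SR protein long used to mark nuclear speckles, measured 30.9, 31.5 and 25.9 FPKM in normoxia and 15.7, 19.8 and 7.49 FPKM in hypoxia. The conditions did not overlap, and hypoxia replicate 3 was the lowest library. The mean fell from 29.5 ± 3.09 FPKM to 14.3 ± 6.29 (n = 3 each), a log2 fold change of -1.08 (SE 0.32, adjusted p = 0.0479). The call ended with a pseudocount of 0.1 (adjusted p = 0.0547), with no filter on low values (0.0917) and after median-ratio scaling (-0.75, 0.0958).

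SRSF7, an SR protein with a zinc knuckle that also serves in mRNA export, measured 10.8, 9.40 and 8.45 FPKM in normoxia and 4.26, 5.91 and 2.90 FPKM in hypoxia. All hypoxia libraries were below all normoxia libraries. The mean fell from 9.56 ± 1.19 FPKM to 4.36 ± 1.51 (n = 3 each), a log2 fold change of -1.01 (SE 0.23, adjusted p = 0.0194). SRSF7 was the 1 member that was still lower after median-ratio scaling (-0.71, adjusted p = 0.0447).

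SRSF12, which has been described as opposing other SR proteins in splice site choice, was the scarcest of the 26 mRNAs. It passed the filter on low values through the normoxia libraries alone, so its call as lower comes from a gene selected for being high there. It measured 1.34, 1.30 and 1.38 FPKM in normoxia and 0.676, 0.654 and 0.417 FPKM in hypoxia. The normoxia libraries lay close together and the conditions did not overlap. The mean fell from 1.34 ± 0.0398 FPKM to 0.582 ± 0.144 (n = 3 each). Its log2 fold change of -0.57 (SE 0.14, adjusted p = 0.0211) understates the change because 1 was added to such low values, and it did not pass after median-ratio scaling (-0.41, adjusted p = 0.0823).

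SRSF6 and SRSF4, the next most abundant SRSF mRNAs after SRSF3 over the 6 libraries, had overlapping conditions. SRSF6, a regulator of alternative exons, measured 27.0, 27.3 and 21.1 FPKM in normoxia and 21.2, 28.6 and 12.7 FPKM in hypoxia (log2 fold change -0.32, adjusted p = 0.466). SRSF4, one of the longest SR proteins, measured 22.2, 26.04 and 23.6 FPKM in normoxia and 22.2, 23.3 and 17.0 FPKM in hypoxia (-0.20, adjusted p = 0.428). Hypoxia replicate 2 was the highest of all 6 libraries for SRSF6, and hypoxia replicate 3 was the lowest for both genes.

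Of the other SRSF genes, which were named after their values were seen, SRSF5 did not overlap between conditions. This regulator of exon inclusion averaged 9.95 ± 1.13 FPKM in normoxia and 5.32 ± 2.06 in hypoxia (-0.84, adjusted p = 0.0555). SRSF1, the founding SR protein, SRSF9, SRSF10, a repressor when dephosphorylated, and SRSF11 overlapped between conditions, with log2 fold changes between -0.60 and -0.11. SRSF11 averaged 12.0 ± 2.02 FPKM in normoxia and 12.9 ± 7.98 in hypoxia, and its estimate changed sign with the choice of libraries.

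HNRNPA1, which antagonises SRSF1 in the choice of splice sites and shuttles to the cytoplasm, had the highest level of the 26. It measured 228, 226 and 175 FPKM in normoxia and 197, 218 and 103 FPKM in hypoxia. Hypoxia replicates 1 and 2 lay within the normoxia range and replicate 3 far below it. The mean was 209.6 ± 29.6 FPKM in normoxia and 173 ± 61.0 in hypoxia (n = 3 each), with a log2 fold change of -0.34 (SE 0.29, adjusted p = 0.449).

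HNRNPK, which binds runs of cytosine through KH domains, measured 151, 137 and 118 FPKM in normoxia and 116, 123 and 54.1 FPKM in hypoxia. The conditions overlapped through hypoxia replicate 2. The mean was 135 ± 16.9 FPKM in normoxia and 97.8 ± 38.0 in hypoxia (n = 3 each), with a log2 fold change of -0.55 (SE 0.32, adjusted p = 0.255).

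HNRNPL, which binds CA repeats and represses or activates exons by position, measured 121, 116 and 113 FPKM in normoxia and 72.6, 74.8 and 56.8 FPKM in hypoxia. The conditions were far apart compared with the spread within them. The mean fell from 117 ± 3.78 FPKM to 68.1 ± 9.84 (n = 3 each), a log2 fold change of -0.78 (SE 0.15, adjusted p = 0.00967). The change was -0.43 after median-ratio scaling, where it did not pass (adjusted p = 0.107). Without normoxia replicate 2 the adjusted p was 0.0537.

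HNRNPUL2, a nuclear RNA-binding protein related to the scaffold protein encoded by HNRNPU, was the 1 member that rose. It measured 38.9, 38.5 and 39.1 FPKM in normoxia and 63.1, 64.9 and 52.1 FPKM in hypoxia. The normoxia libraries were almost equal, and each hypoxia library was above all of them. The mean rose from 38.9 ± 0.304 FPKM to 60.0 ± 6.92 (n = 3 each), a log2 fold change of 0.61 (SE 0.14, adjusted p = 0.0183), and 0.96 after median-ratio scaling (adjusted p = 0.00652). HNRNPUL1, its closest relative by name, averaged 82.5 ± 6.66 FPKM in normoxia and 78.4 ± 5.08 in hypoxia (-0.07, adjusted p = 0.746). HNRNPU, which anchors RNA in chromatin, averaged 38.4 ± 4.79 and 31.4 ± 12.2 FPKM (-0.35, adjusted p = 0.434).

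The remaining HNRNP genes were named after their values were seen, and none passed. HNRNPD, which binds AU-rich elements of unstable mRNAs, did not overlap between conditions, with 76.1 ± 11.5 FPKM in normoxia and 48.1 ± 12.0 in hypoxia (-0.67, adjusted p = 0.0661). HNRNPM, a regulator of alternative exons, did not overlap either, with 72.5 ± 9.14 and 41.2 ± 17.2 FPKM (-0.89, adjusted p = 0.0842). HNRNPDL, the paralog of HNRNPD, HNRNPR, HNRNPA2B1 and HNRNPLL, the paralog of HNRNPL, had log2 fold changes between -0.90 and -0.67. HNRNPH1, HNRNPH2 and HNRNPH3, which bind runs of guanine, had log2 fold changes between -0.55 and -0.19. These 3 genes are close paralogs, and how reads shared by paralogs were assigned was not stated.

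**Figure D2:**
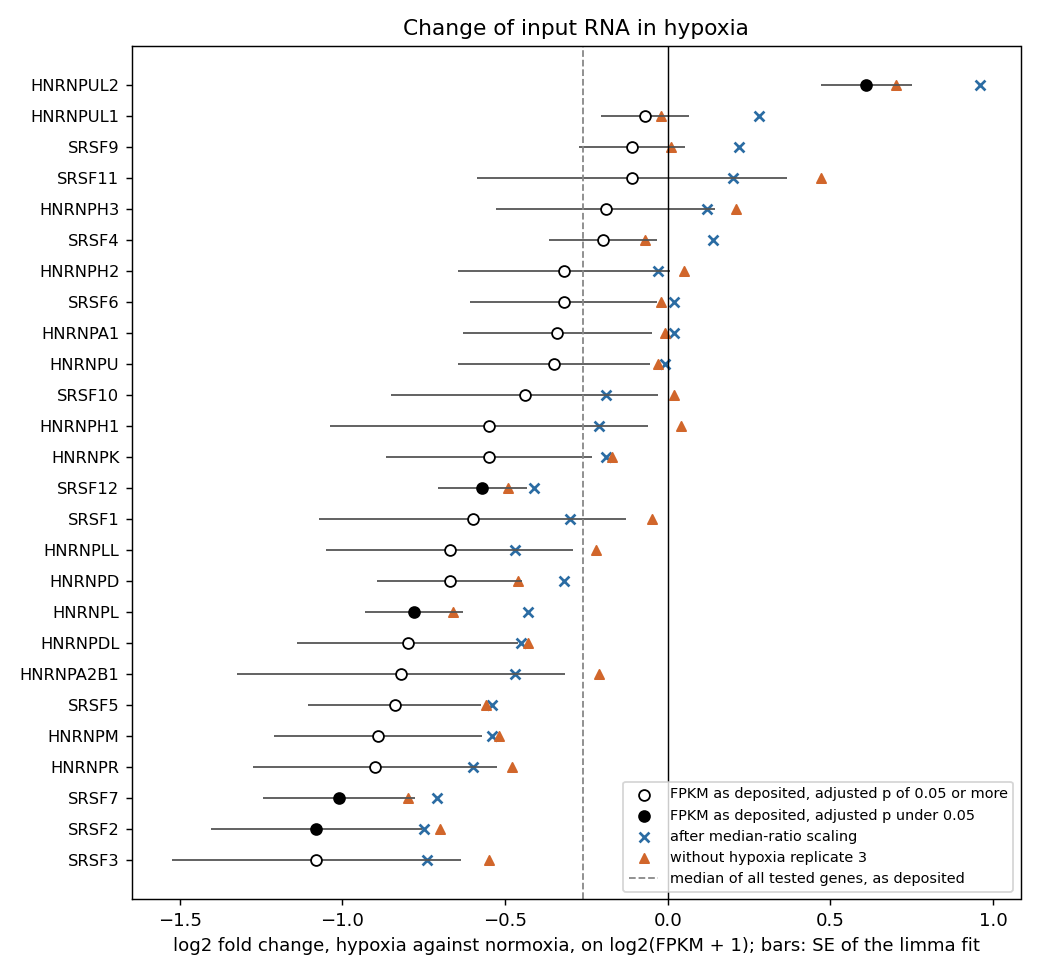
Log2 fold change of each gene, hypoxia against normoxia on log2(FPKM + 1), with the SE of the limma fit as bars (filled circles, adjusted p under 0.05), beside the values after median-ratio scaling (crosses) and without hypoxia replicate 3 (triangles). The dashed line is the median of all tested genes, -0.26; most circles lie to its left, and crosses and triangles lie mostly to the right of the circles.

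The 5 calls rested on particular libraries and on the scaling. SRSF2, SRSF7, SRSF12 and HNRNPUL2 each missed the threshold when normoxia replicate 1, 2 or 3 or hypoxia replicate 1 was left out, with adjusted p between 0.0551 and 0.161. All 5 genes passed without hypoxia replicate 2, when 9 members were lower and 1 higher (22.7% and 5.74% of all tested genes), and without hypoxia replicate 3, when 8 were lower and 1 higher (31.2% and 11.2%). Median-ratio scaling moved the median of all tested genes from -0.26 to 0.02 and that of the 26 members from -0.56 to -0.25. After it, 1 member was lower and 1 higher and 18 of 26 estimates were below 0, compared with 48.5% of tested genes. Calls over all tested genes were then 753 lower (7.39%) and 748 higher (7.34%), in place of 2148 and 551. In the authors' deposited table, 2 members had a q-value under 0.05, where 19.1% of the genes tested here and 13.7% of all genes did. They were SRSF7 with a log2 fold change of -1.13 (q = 0.0123) and HNRNPUL2 with 0.63 (q = 0.00273). That table marked SRSF2 (q = 0.0676), SRSF7 and SRSF12 (q = 0.140) as significant, as it did 13.5% of all genes. It did not mark HNRNPUL2, so the mark is not a threshold on q alone, and it gave HNRNPL a q-value of 0.123.

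Levels of the family differed between replicates of a condition. Hypoxia replicate 3 was the lowest hypoxia library for all 26 genes, compared with 55.5% of tested genes, and replicate 3 was the lowest in both conditions for 23 of 26, compared with 42.1%. The exceptions were SRSF4, SRSF12 and HNRNPUL2. Hypoxia replicate 2 was the highest hypoxia library for 24 of 26, compared with 48.9%. The 26 genes together made up 0.389%, 0.366% and 0.306% of all FPKM in normoxia replicates 1 to 3 and 0.283%, 0.361% and 0.163% in hypoxia.

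Relative to the mean of hypoxia replicates 1 and 2, the level in hypoxia replicate 3 had a median of 0.453 over the members and 0.835 over all tested genes. HNRNPLL had the lowest ratio, 0.141, followed by SRSF10 with 0.242, SRSF1 with 0.249, SRSF11 with 0.255 and HNRNPA2B1 with 0.260. HNRNPUL1 had the highest, 0.897, and HNRNPUL2 the next, 0.814. The same ratio in normoxia had a median of 0.802 over the members and 0.943 over all tested genes. Of the genes that passed the test between conditions, SRSF2 had a ratio of 0.421, below the median of the members, whereas SRSF7, SRSF12, HNRNPL and HNRNPUL2 had ratios of 0.570 to 0.814.

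**Figure D3:**
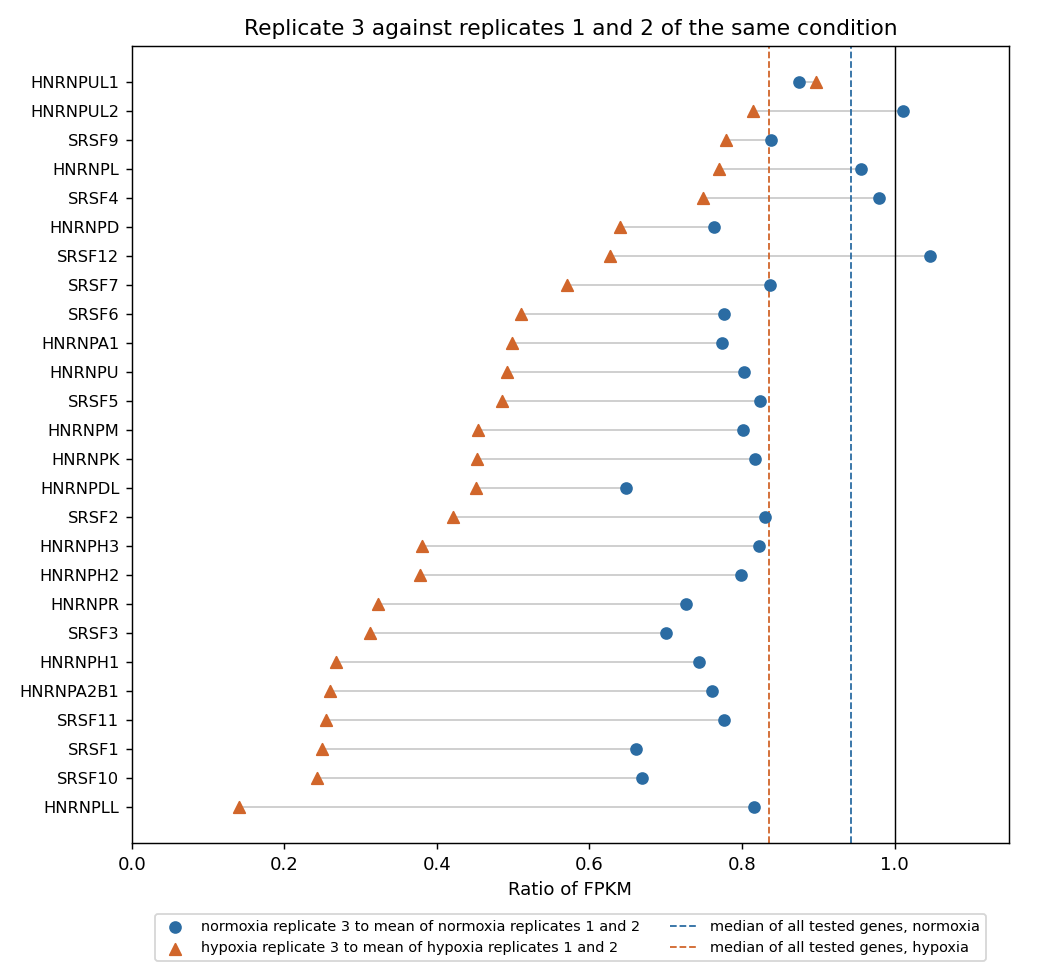
FPKM in replicate 3 divided by the mean of replicates 1 and 2 of the same condition, for each gene (circles, normoxia; triangles, hypoxia), with the medians of all tested genes as dashed lines at 0.943 and 0.835. Of the 26 triangles, 25 lie left of the hypoxia median, down to 0.141 for HNRNPLL, and the circles lie between 0.647 and 1.05.

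Hypoxia replicates 1 and 2 alone stood near normoxia for much of the family. Their mean divided by the normoxia mean had a median of 0.917 over the members, beside 0.866 over all tested genes, whereas hypoxia replicate 3 divided by the normoxia mean had a median of 0.344, beside 0.650. Without hypoxia replicate 3 the median log2 fold change of the members was -0.12 and that of all tested genes was -0.17. Hypoxia replicate 3 also held fewer genes at 1 FPKM or more, 8886 compared with 9813 to 10212 in the other libraries. Its 20 highest genes took 24.6% of all FPKM, compared with 18.7% to 23.4% in the others. The part of these library differences in the results was not tested.

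Gene lists of related function stood at different levels in the same library, as a description with no test. Core spliceosome genes had a median ratio of hypoxia replicate 3 to replicates 1 and 2 of 0.947, nonsense-mediated decay genes 0.958, and import receptors and arginine methyltransferases 0.893. The hnRNP proteins encoded under other names had a median of 0.824, near all tested genes, whereas the HNRNP genes had 0.452. The median ratio was 0.372 for SR kinases and phosphatases, 0.518 for the m6A reader, writers and erasers, 0.537 for tissue-variable splicing regulators and 0.576 for SR-related and exon junction proteins. The list medians thus fell on both sides of the 0.835 of all tested genes. That of SR kinases and phosphatases was lowest, and those of core spliceosome and decay genes were highest. Single genes of the kinase and phosphatase list ran from 0.304 to 1.27, with the kinase CLK2 at 1.13. Core spliceosome genes instead stood lower in every hypoxia library, with median log2 ratios to the normoxia mean of -0.54, -0.60 and -0.77, while the members stood at -0.30, -0.03 and -1.29.

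**Figure D4:**
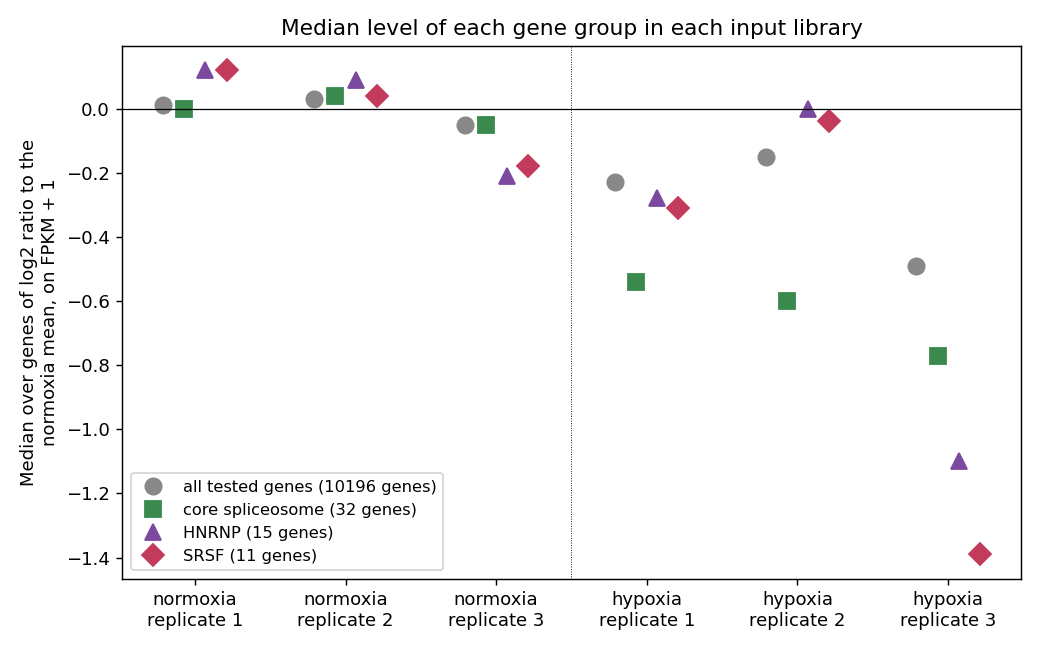
Median over genes of the log2 ratio of each library to the normoxia mean, on FPKM + 1, for all tested genes, core spliceosome genes, HNRNP genes and SRSF genes. SRSF and HNRNP medians are near all tested genes in hypoxia replicates 1 and 2 and lowest in hypoxia replicate 3, at -1.39 and -1.10, whereas core spliceosome medians are below all tested genes in every hypoxia library.

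Of 112 tested partner genes, 36 fell and 2 rose, with a median log2 fold change of -0.42; over all tested genes 21.1% were lower and 5.4% higher, at a median of -0.26. After median-ratio scaling 8 partners were lower and 2 higher, beside 7.39% and 7.34% of all tested genes. The count of lower partners was 13 without normoxia replicate 2, when 7.83% of all tested genes were lower. It was 17 without normoxia replicate 1 or 3 or hypoxia replicate 1, when 10.1% to 11.6% were lower, and 45 without hypoxia replicate 3, when 31.2% were lower. The core spliceosome, which assembles on introns and carries out splicing, had the most calls, with 18 of 32 lower and none higher at a median of -0.63; the scaled values left 4 lower. SNRPA, a protein of the particle that reads the upstream splice site, fell from 46.5 ± 4.43 to 22.3 ± 1.58 FPKM (n = 3 each; -1.03, adjusted p = 0.00286). SF3B3, of the complex at the branch point, fell by 0.85 on the log2 scale and U2AF2, which binds the pyrimidine tract, by 0.84, but neither passed after scaling.

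Of the hnRNP proteins encoded under other names, 6 of 17 fell and none rose, at a median of -0.53. Over all tested genes 21.1% were lower and 5.4% higher, at a median of -0.26. EWSR1, an RNA-binding protein of transcription and splicing, fell from 76.9 ± 1.76 to 41.0 ± 5.46 FPKM (n = 3 each; -0.90, adjusted p = 0.00492). DAZAP1, a shuttling RNA-binding protein, fell by 0.69 on the log2 scale. Neither passed after median-ratio scaling.

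Among SR-related and exon junction proteins, 4 of 17 fell and none rose, at a median of -0.44, a share near the 21.1% of all tested genes. EIF4A3, the helicase that clamps the exon junction complex to mRNA, fell by 1.02 on the log2 scale, its partner RBM8A by 0.72, and RNPS1, a splicing activator of that complex, by 0.51. Among tissue-variable splicing regulators, 1 of 13 fell, RBM10, by 0.71, at a median of -0.04. RBM8A, RNPS1 and RBM10 did not pass after median-ratio scaling.

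Enzymes that modify the 2 families were few, so their counts are set beside 21.1% lower and 5.4% higher over all tested genes. Arginine methyltransferases and import receptors had 3 of 7 lower, all methyltransferases: PRMT5 fell by 1.32, PRMT6 by 1.29 and PRMT1 by 0.86 on the log2 scale, and PRMT1 did not pass after scaling. Of 9 SR kinases and phosphatases 1 rose and none fell. That gene was CLK2, a nuclear kinase of SR proteins, which measured 4.75 ± 0.322 FPKM in normoxia and 7.78 ± 0.543 in hypoxia (n = 3 each; 0.61, adjusted p = 0.0205). The median of that list was -0.27.

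The decay pathway that removes many SR and hnRNP transcripts had 3 of 7 genes lower and none higher, beside 21.1% lower over all tested genes, and its median of -0.26 was that of all tested genes. UPF1, its central helicase, fell by 0.62 on the log2 scale, SMG5 by 0.60 and DHX34 by 0.66, and none of the 3 passed after median-ratio scaling. Of 10 m6A reader, writer and eraser genes, 1 rose and 1 fell, beside 5.4% and 21.1% of all tested genes. The eraser ALKBH5 rose from 10.1 ± 0.723 to 16.7 ± 1.06 FPKM (n = 3 each, log2 fold change 0.67, adjusted p = 0.0125). The eraser FTO fell by 0.51 on the log2 scale. CLK2 and ALKBH5 were not called when any of normoxia replicates 1 to 3 or hypoxia replicate 1 was left out (adjusted p between 0.0523 and 0.107). FTO was called with all libraries and without hypoxia replicate 3, and not without any other library (adjusted p between 0.0934 and 0.167), with no filter (0.0588) or after median-ratio scaling (-0.17, 0.656). The median of the 10 was -0.12.

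m6A peaks are stretches of mRNA enriched by the antibody over input, and the authors deposited 1 list per condition, with no value per replicate. The enrichments are the authors' values. In the normoxia list 22 of 26 genes (84.6%) had a peak, compared with 85.8% of tested genes, and in the hypoxia list 20 of 26 (76.9%), compared with 79.8%. The members held 44 peaks in normoxia and 35 in hypoxia, of which 41 and 34 had an adjusted p under 0.05 in the authors' lists. Over tested genes, 17661 of 19361 and 16695 of 18166 peaks did. The member peaks that did not were of SRSF9 and SRSF10. No peak was listed in either condition for SRSF1, SRSF3, SRSF7 or HNRNPLL. SRSF2 and HNRNPH1 had peaks in the normoxia list alone, where 8.48% of tested genes did, and none had a peak in the hypoxia list alone, where 2.53% did.

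In the authors' annotation the SRSF and HNRNP genes differed in the region given to their listed peaks, which was not tested. Among SRSF genes, 10 of 15 normoxia peaks were annotated to the 3′ UTR, 3 to the 5′ UTR and 2 to other exonic sequence. Among HNRNP genes, 15 of 29 were annotated to the 5′ UTR, 8 to other exonic sequence and 6 to the 3′ UTR. Over all tested genes the shares were 18.7% for the 5′ UTR, 31.0% for other exonic sequence and 49.0% for the 3′ UTR. In the hypoxia list the HNRNP peaks were 8 in the 5′ UTR, 12 exonic and 5 in the 3′ UTR of 25, and the SRSF peaks were 1, 3 and 6 of 10. Of the 10 SRSF 3′ UTR peaks in normoxia, 4 belonged to SRSF9 alone, and peaks of a gene are not independent of one another. Those 4 lay outside the RefSeq span of SRSF9, and 1 HNRNPM 5′ UTR peak lay outside that of HNRNPM. Some normoxia peaks annotated to the 5′ UTR reached far along the gene. One of HNRNPH2 lay at 61.9% to 84.9% of the gene span, and that of HNRNPD covered 83.6% of it. Some SRSF peaks annotated to the 3′ UTR were as wide. In normoxia that of SRSF5 covered 89.1% of the gene span and that of SRSF11 72.1%.

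**Figure D5:**
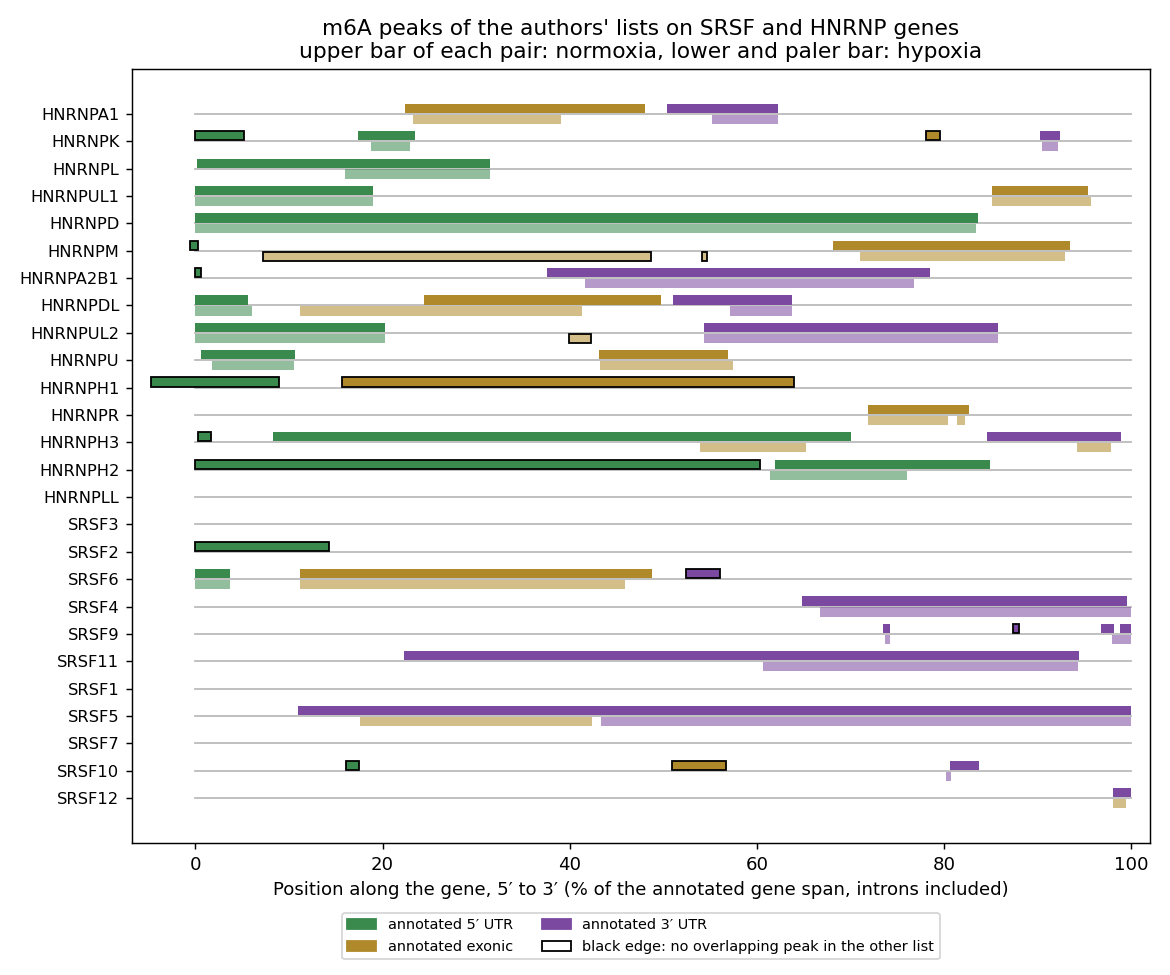
Listed m6A peaks along each gene from 5′ to 3′, as percent of the annotated gene span with introns included (upper bar, normoxia; lower paler bar, hypoxia; colours, annotated region; black edge, no overlapping peak in the other list). HNRNP peaks lie mostly toward the 5′ end or mid-gene. Among SRSF genes, peaks of SRSF4, SRSF9 and SRSF12 lie toward the 3′ end, and those of SRSF2 and SRSF6 toward the 5′ end or mid-gene. SRSF10 has normoxia peaks in all parts, and the normoxia peaks of SRSF5 and SRSF11 cover most of the gene. A black edge marks 13 normoxia and 3 hypoxia bars.

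Of the members' normoxia peaks, 31 of 44 (70.5%) overlapped a hypoxia peak of the same gene, compared with 74.1% over tested genes. Of their hypoxia peaks, 32 of 35 (91.4%) overlapped a normoxia peak, compared with 87.5%. The overlaps formed 33 pairs, of which 29 kept the annotated region, 4 had identical ends and 25 differed by at most 0.5 in log2 enrichment. When both peaks had to overlap by at least 50%, 25 peaks of each list were shared. These were 56.8% of the normoxia and 71.4% of the hypoxia peaks, compared with 47.9% and 51.0% over tested genes. The median log2 enrichment was 1.83 in normoxia and 2.11 in hypoxia, beside 1.85 and 2.04 for tested genes.

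SRSF5 carried the most enriched peak of the family, annotated to the 3′ UTR, with a log2 enrichment of 6.61 in normoxia and 6.27 in hypoxia. The intervals differ, covering 89.1% of the gene span in normoxia and 56.7% in hypoxia. The hypoxia list also held an exonic SRSF5 peak with 1.23 inside the normoxia interval. Both 3′ UTR peaks ran to the end of the deposited gene span, which lies 4501 bases past the RefSeq end of SRSF5. RefSeq places the neighbouring gene SLC10A1 across part of these peaks. HNRNPD had the next highest in normoxia, 5.72, and 5.07 in hypoxia. Its normoxia peak spans 15163 bases, covers 83.6% of the gene and begins at its annotated start. RefSeq places LOC110255270 across part of the HNRNPD peaks. Among genes with 1 peak in each list, SRSF4 had the widest shift, from 2.00 to 4.80, in 3′ UTR peaks of 9740 and 9326 bases that overlapped almost whole. SRSF12, whose RNA fell, went from 3.84 to 2.36 at its 3′ end. The lists carry no replicate error, so none of these shifts could be tested.

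HNRNPUL2, the member whose RNA rose, was also the 1 member in the authors' deposited table of differential peaks, which holds 9.62% of tested genes. The gene lies on the plus strand at chr2:9034667-9048768 (Sscrofa11.1). Its 5′ UTR peak, chr2:9034667-9037519, and its 3′ UTR peak, chr2:9042325-9046759, had identical ends in both lists, with log2 enrichments of 4.75 and 4.89 and of 3.18 and 3.38 in normoxia and hypoxia. A weak exonic peak between them, chr2:9040299-9040622, was listed in hypoxia alone with a log2 enrichment of 0.39. The authors' deposited differential table gave chr2:9040299-9040592 a log2 difference of 0.20, higher in hypoxia, with a p-value of 0.0309 and an adjusted p-value of 0.245, which does not pass 0.05.

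The other peaks in the hypoxia list alone were both on HNRNPM. One spanned 20217 bases of chr2:70838824-70859040, introns included, with a log2 enrichment of 4.50, and the other 91 bases of chr2:70836071-70836161 with 0.97. HNRNPM had 1 peak in the normoxia list alone, chr2:70862432-70862851, annotated to its 5′ UTR with a log2 enrichment of 2.03. That interval lies within the span of the neighbouring gene MARCHF2 in the deposited table and outside the RefSeq span of HNRNPM. SRSF9 was the other gene with peaks wholly outside its RefSeq span: all 4 normoxia and both hypoxia peaks lay in that of GATC, on the opposite strand. Of the 10 SRSF 3′ UTR peaks in normoxia, 6 therefore lay on genes other than SRSF9.

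Of the 13 normoxia peaks with no overlap, 12 were below the members' median log2 enrichment of 1.83. HNRNPM had the highest log2 enrichment, 2.03, and SRSF10 the next, 1.82, for a 5′ UTR peak with an adjusted p-value of 0.0794. HNRNPH1 had a 5′ UTR peak with 1.05 and an exonic peak with 0.98, HNRNPH2 a 5′ UTR peak with 1.37, and HNRNPK a 5′ UTR peak with 0.53 and an exonic peak with 0.38. SRSF2, whose RNA fell, had its 1 listed peak in the 5′ UTR of the normoxia list, with 0.58. A lower input level and a lower methylation cannot be told apart from a list that only records which peaks were called.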

How the data were processed

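The genome build was Sscrofa11.1 and the tools included HISAT2 2.0.4, HOMER 4.10, StringTie 2.1.2, edgeR 4.1 and fastp 0.19.4, per the submitters' processing notes, which pair no tool with a table and name no peak caller. The authors deposited FPKM per gene and input library, per the file headers, and a comparison with a log2 fold change, ratio, p-value and q-value. The authors' deposited peak lists give log2 and linear fold enrichment, p-value and adjusted p-value per peak; their starts count from 0, and 1 was added. Positive values of the differential table were read as higher in hypoxia, since 87 such peaks overlapped the hypoxia list alone and 1 the normoxia list alone. FPKM hold no counts: among 1150 genes below 0.1 FPKM at most 12 had the same ratio of normoxia library 1 to 2, so whole reads could not be recovered and depth is unknown.

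Here log2(FPKM + 1) of the 10196 genes that reached 1 FPKM in 3 or more of the 6 input libraries was fitted with limma 3.58.1 (R 4.3.3; robust, trended variance); p-values were adjusted by Benjamini-Hochberg over all of them, with a threshold of 0.05. The script was tested on simulated data. Errors are SD over 3 libraries and SE of the fit. Values in every library were given for members past the threshold, for the 3 most abundant members of each family and for members in the differential peak table, and of each partner list at most the 3 genes with the smallest adjusted p among those past it; 1 gene that this rule names is not reported here. The members, partner lists and naming rule were chosen with earlier results of these data known. Alternatives were the pseudocount, the filter, median-ratio scaling, a replicate block, limma without robust estimation, leaving out each library and stricter peak criteria. Gene spans of neighbours came from RefSeq, Sscrofa11.1. Peaks counted as shared when they overlapped by at least 1 base on the same gene.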

Additional observations from a re-analysis of the deposited data

How the results depend on the processing

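The count of 4 lower members was 1 after median-ratio scaling, 10 with a replicate block and between 0 and 9 when 1 library was left out; the count of 1 higher member was between 0 and 1. For partner genes, 36 lower became 8 after scaling and between 13 and 45 with a library left out, and 2 higher became between 0 and 6. Peaks with at least 4-fold enrichment numbered 19 in normoxia and 18 in hypoxia, in place of 44 and 35. These shares, 43.2% and 51.4%, were near the 44.8% and 53.1% over tested genes. No member peak of the differential table had an adjusted p under 0.05, where 1 was listed. The replicate block is no paired analysis by design: the labels give only a number, and deviations from the group means correlated at 0.59, 0.04 and 0.70 for replicates 1, 2 and 3 (over 10196 genes), with normoxia replicate 1 closest to hypoxia replicate 2 (0.64). With the block 3463 genes passed in all (27.1% of tested genes lower), in place of 2699. Scaling with the replicate block, chosen after seeing the data, gave 3 lower and 1 higher members. In that fit 11.4% of all tested genes were lower and 11.7% higher. Estimates below 0 turned positive after median-ratio scaling, with or without the replicate block, for HNRNPA1 (0.02), HNRNPUL1 (0.28), HNRNPH3 (0.12), SRSF4 (0.14), SRSF6 (0.02), SRSF9 (0.22) and SRSF11 (0.20). With 1 library left out, estimates ranged from -0.99 to 0.04 for HNRNPH1, -0.60 to 0.05 for HNRNPH2, -0.44 to 0.21 for HNRNPH3, -0.18 to 0.01 for SRSF9, -0.80 to 0.02 for SRSF10 and -0.53 to 0.47 for SRSF11; each upper value is that without hypoxia replicate 3, and SRSF11 was at 0.00 without normoxia replicate 1. None of these genes passed in either fit. The cause was not tested. FPKM carry no depth, so no counting error is given.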

Other observations

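The genes on which some listed peaks of members also lie were measured in the same libraries. GATC, which overlaps the listed SRSF9 peaks, averaged 15.1 ± 1.03 FPKM under normoxia and 10.5 ± 1.80 under hypoxia (a log2 fold change of -0.49, adjusted p = 0.0713). MARCHF2, a ubiquitin ligase gene beside HNRNPM, averaged 21.2 ± 3.56 FPKM in normoxia and 11.6 ± 2.42 in hypoxia (-0.83, adjusted p = 0.0252), but did not pass after median-ratio scaling (-0.49, adjusted p = 0.267) or without normoxia replicate 2 or 3 or hypoxia replicate 1 (adjusted p of 0.104, 0.101 and 0.0696).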
